A study of Mus musculus with 4 samples.

Results

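Cluster c3 is among the 7 groups of cells, c1 to c7, that the authors drew among hematopoietic stem cells (HSC) purified from mouse bone marrow, and it carries the working name DNA-replicating erythroid-primed progenitors. It is described here from all 20062 genes of the authors' deposited table that sets c3 against the cells outside it. The tables of the other 6 clusters, each of 20062 genes as well, serve for context. The 4 samples of the series were 2 labelled old and 2 labelled young. All came from mice of the Gfp-Lc3 genotype, whose transgene tags LC3, a protein of autophagosomes, with green fluorescent protein, under steady state isolation. The old and young groups both carry the transgene, and the labels give no promoter for it, no sex and no age beyond the words old and young. Droplet (10x) and plate-based (SmartSeq2) single-cell libraries were made per the labels' protocols, and neither the assay nor the samples behind the tables are stated in the sources used here. The tables hold no sample columns, so old was not compared with young, and no value below has a replicate check.

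A fold change is the authors' deposited log2 ratio of c3 to the cells outside it, limited by them to the range from -4 to 4, so that 4 stands for at least 16-fold. A gene is called where the authors' deposited adjusted p was under 0.05. The sources used here state neither the test behind that p nor its unit, which describes cells and not animals if it was the cell. If c3 was drawn from the same expression values, each gene that separates it was part of its definition, and the calls are a description of these cells, not a test. A level is the mean count of a gene per 10000 counts of a cell, rebuilt inside and outside c3 from the deposited mean and fold changes. Levels are compared within a gene only. Rebuilding the c3 level of the cluster's 7 markers from the other 6 tables gave 0.824 to 1.10 times the level from its own table, so an order of clusters is read only where levels differ by more than 1.25 times.

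Before a cell copies its genome, the origin recognition complex, CDC6 and CDT1 load the MCM helicase on origins in G1, and the transcription factor E2F1, freed from the retinoblastoma protein, switches on the genes for licensing, nucleotide supply and the fork. Histone genes follow in S phase, and the genes of mitosis peak in G2. In the red cell lineage GATA1 and KLF1 drive genes of the erythrocyte membrane, heme and globin, and progenitors cycle quickly as they commit to it. Most HSC of adult marrow are quiescent.

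Promoter windows of 300 bases, from 250 before the annotated gene start to 50 after its first base, are shown for 5 genes because the groups described below differ in the letters they hold (RefSeq, build GRCm38.p6). Capitals mark the motif named with each gene. Mcm5 and Mcm6, subunits of the helicase, and Hells, a chromatin remodeller, hold letters of the E2F motif. Epor, the erythropoietin receptor gene, holds a GATA motif, and Cdk1, the kinase of mitotic entry, holds the CHR motif of genes that peak in G2. The Cdk1 window also holds E2F letters, left in lower case, and is the 1 window of 38 in the mitosis list that does. The Mcm5 window is chr8:75109259-75109558 on the plus strand, Mcm6 is chr1:128359656-128359955 on the minus strand, Hells is chr19:38930740-38931039 on the plus strand, Epor is chr9:21963527-21963826 on the minus strand and Cdk1 is chr10:69352863-69353162 on the minus strand. Each is written 5′ to 3′ along its gene.
Mcm5, E2F: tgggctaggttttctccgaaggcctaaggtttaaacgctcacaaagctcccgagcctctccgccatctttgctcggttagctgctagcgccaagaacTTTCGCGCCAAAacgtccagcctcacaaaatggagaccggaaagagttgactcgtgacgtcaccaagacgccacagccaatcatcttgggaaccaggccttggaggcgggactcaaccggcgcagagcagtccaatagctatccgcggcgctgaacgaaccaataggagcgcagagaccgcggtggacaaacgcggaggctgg
Mcm6, E2F: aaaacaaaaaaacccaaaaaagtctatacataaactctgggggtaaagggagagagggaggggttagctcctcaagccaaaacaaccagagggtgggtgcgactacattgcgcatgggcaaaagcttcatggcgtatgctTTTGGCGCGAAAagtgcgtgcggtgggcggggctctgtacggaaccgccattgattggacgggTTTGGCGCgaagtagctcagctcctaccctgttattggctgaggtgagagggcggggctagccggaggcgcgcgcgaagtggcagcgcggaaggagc
Hells, E2F: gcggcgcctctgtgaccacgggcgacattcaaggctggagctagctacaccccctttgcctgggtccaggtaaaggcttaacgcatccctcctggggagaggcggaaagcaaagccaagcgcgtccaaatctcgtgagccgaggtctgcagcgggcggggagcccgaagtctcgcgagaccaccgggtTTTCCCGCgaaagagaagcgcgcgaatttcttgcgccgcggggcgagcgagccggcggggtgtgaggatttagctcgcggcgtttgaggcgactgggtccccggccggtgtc
Epor, GATA: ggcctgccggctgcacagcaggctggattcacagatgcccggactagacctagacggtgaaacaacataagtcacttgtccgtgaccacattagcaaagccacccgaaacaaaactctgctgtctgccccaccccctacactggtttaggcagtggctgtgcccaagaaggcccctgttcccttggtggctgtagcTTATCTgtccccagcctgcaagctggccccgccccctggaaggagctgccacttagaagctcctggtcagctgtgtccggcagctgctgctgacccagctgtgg
Cdk1, CHR: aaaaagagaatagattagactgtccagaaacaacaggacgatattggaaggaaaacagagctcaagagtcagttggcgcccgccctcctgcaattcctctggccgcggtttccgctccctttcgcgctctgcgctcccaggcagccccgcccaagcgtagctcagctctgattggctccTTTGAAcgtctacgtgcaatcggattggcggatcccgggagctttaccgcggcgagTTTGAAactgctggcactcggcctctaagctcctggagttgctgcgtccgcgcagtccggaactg

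Letters of the E2F motif stood in 18 of 71 promoter windows of the replication genes, or 25.4%, against 2.26% of all 32851 windows of the table. The replication genes are the licensing, fork and nucleotide lists, and 60 of their 71 genes had a window. The letters searched were TTTCCCGC, TTTGGCGC, TTTCGCGC and TTTGCCGC on both strands, and matches can overlap, as do the 2 matches of Mcm5 at -153 and -149 from the start. Hells held 1 match, at -62, and Mcm6 held 3, from -110 to -47. Of the 15 genes highest in c3, described below, 9 had a window and 6 of these held E2F letters. The windows of Ung and E2f1 held none, which says only that these letters are not in those windows.

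The mitosis list held other letters, and for CHR and CCAAT the erythroid lists stood closer to all windows. CHR letters (TTTGAA or TTCGAA) stood in 76.3% of the 38 windows of the mitosis list, in 16.9% of the replication windows, in 20.8% of the 72 windows of the erythroid lists and in 19.2% of all windows. CCAAT stood in 78.9% of the mitosis windows, 49.3% of the replication windows, 43.1% of the erythroid windows and 37.4% of all windows. The GATA letters AGATAA were in 16.7% of erythroid windows, 5.63% of replication windows, 5.26% of mitosis windows and 11.2% of all windows. The 95% Wilson interval of the erythroid GATA share, 9.80% to 26.9%, takes in the share of all windows, as does that of the erythroid CCAAT share, 32.3% to 54.6%. The interval was 16.7% to 36.6% for E2F letters in the replication windows and 60.8% to 87.0% for CHR letters in the mitosis windows. These intervals cover counting error only, and windows of 1 gene can overlap. CACCC letters (CCNCNCCC) were common everywhere, in 69.4% of erythroid, 66.2% of replication and 60.5% of mitosis windows against 49.5% of all. The erythroid interval for CACCC, 58.0% to 78.9%, lay above the share of all windows, as did that of replication, 54.6% to 76.1%. The mitosis interval for CACCC, 44.7% to 74.4%, took that share in. E2F letters were in 2.63% of mitosis and 2.78% of erythroid windows, near the share of all windows. A match is a description of the letters and not a bound site.

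**Figure D1:**
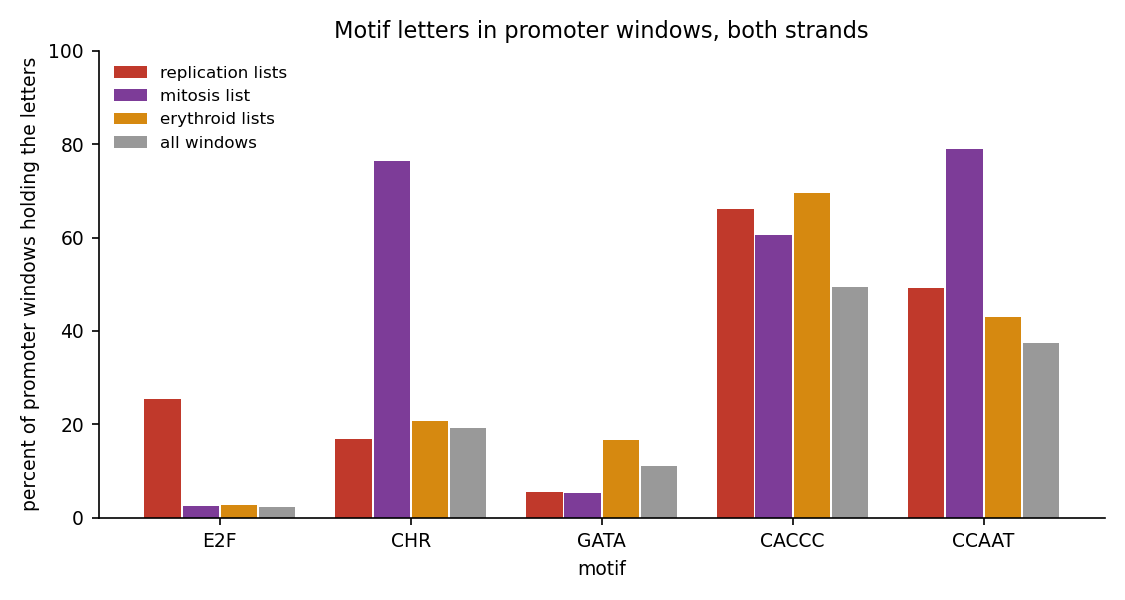
Percent of RefSeq promoter windows (y axis) that hold the letters of each of 5 motifs on either strand (x axis), for the replication lists, the mitosis list, the erythroid lists and all windows. E2F letters reach 25.4% in the replication lists and CHR letters 76.3% in the mitosis list.

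An estimated 12.0% of the cells lay in c3, against 40.8% in c1, 33.8% in c2, 10.2% in c4, 1.66% in c5, 0.996% in c6 and 0.348% in c7. Of all genes, 3634 were called higher in c3 (18.1%) and 2044 lower (10.2%) in the authors' deposited table, or 28.3% in either direction. Among the 10027 genes whose mean expression reached the median, called expressed genes below, 3261 were called higher (32.5%) and 1718 lower (17.1%), and their median fold change was 0.07. These shares are the background for each count of a list below, and nothing is read from a list whose share is near them. In c4 24.3% of all genes were called higher and 10.6% lower (34.9% in either direction), and of expressed genes 44.2% were called higher and 16.7% lower. Of the 3261 genes, the c3 level was over 1.25 times that of every other cluster for 293.

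By list median, the genes of origin licensing and the fork stood highest in c3. Among called expressed genes the 15 highest included Ung, Car1, Hells, E2f1, Uhrf1, Cdt1, Dscc1, Ccne2, Mcm5, Chek1, Lig1, Dtl, Rmi2 and Gins2, with fold changes from 2.76 to the limit of 4 in the authors' deposited table. Those named, all but Car1, a carbonic anhydrase, act in DNA replication, its repair or checkpoint, or the entry to S phase. Ung, the uracil glycosylase that removes uracil from DNA, was the one expressed gene at the upper limit. Its rebuilt level was at least 1.04 in c3 against at most 0.0652 outside it. The same gene stood at 0.0634 in c4, 0.0569 in c1, 0.0429 in c2, 0.139 in c5, 0.0115 in c6 and 0.115 in c7, so that c3 was at least 7.49 times the next cluster. Rebuilt from the other 6 tables alone, Ung had a level of 1.13 in c3 against 0.0535 outside it.

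The 10 expressed genes that stood furthest above the next highest cluster were, after Ung, Zmynd19 (2.88 times the next), E2f1 (2.64), Sox12 (2.30), Mcm2 (2.21), Nefh and Alkbh2 (2.13 each), Dhrs13 and Pdxp (2.10 each) and Cdca7 (2.03). Alkbh2 repairs alkylated bases in DNA, Sox12 is a transcription factor, and Nefh is a neurofilament subunit. Zmynd19 had a level of 0.640 in c3 and 0.175 outside it, Alkbh2 0.251 and 0.0898, Sox12 0.294 and 0.109, and Nefh 0.577 and 0.233. Alkbh2 and Nefh had fold changes of 1.48 and 1.31 in the authors' deposited table of c3, against -1.89 and -0.82 in that of c4. The choice of these genes fixed that they lie above c4, and E2f1 at 1.09, Mcm2 at 0.94 and Cdca7 at 0.71 were above 0 in the authors' deposited table of c4 too. Genes called higher in both c3 and c4 numbered 2674.

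**Figure D2:**
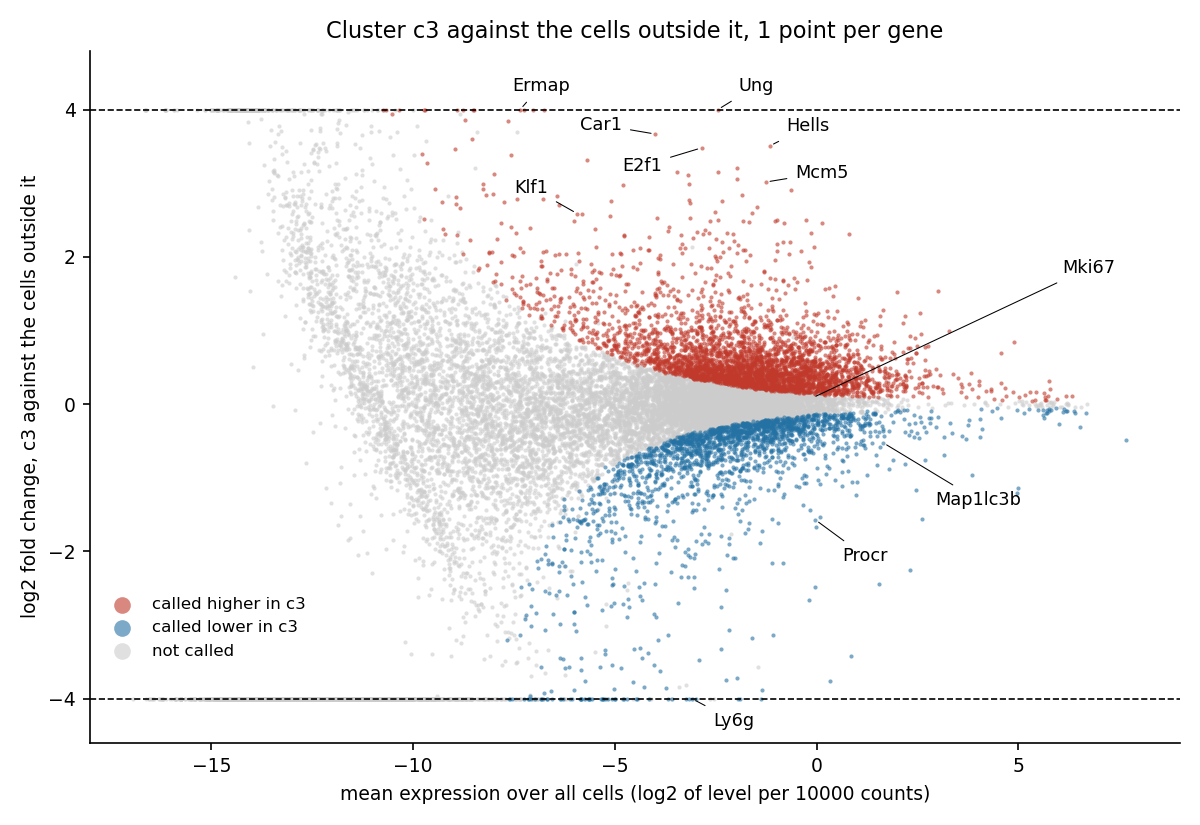
Log2 fold change of c3 against the cells outside it (y axis) by mean expression over all cells (x axis, log2 of the level per 10000 counts), 1 point per gene, coloured by the authors' call, with dashed lines at the limits of -4 and 4. Ung and Ermap lie at the upper limit at very different mean expression, and Mki67 is not called.

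Licensing genes were called higher in c3 for 20 of 23 and lower for none, with a median of 2.32 in the authors' deposited table. Cdt1, which loads the helicase, had a level of 0.841 in c3 and 0.0944 outside it, and its partner Cdc6 had 0.322 and 0.0740. All 6 helicase subunits were called higher: Mcm2 at 2.68, Mcm3 at 2.50, Mcm4 at 2.60, Mcm5 at 3.02, Mcm6 at 2.45 and Mcm7 at 2.32 in the authors' deposited table. Orc1, the origin recognition subunit whose abundance follows the cell cycle, was at 3.32, while Orc6 at 1.72, Orc2 at 1.08 and Orc3 at 0.48 were called with smaller values in the authors' deposited table. Orc5 at 0.34, Orc4 at 0.15 and Dbf4, the activator of the CDC7 kinase, at 0.09 were not called in the authors' deposited table. Of the helicase partners, Gins2 was at 2.76, Gins1 at 2.41, Cdc45 at 2.25, Gins3 at 1.56 and Gins4 at 1.03 in the authors' deposited table. The firing factors Mcm10 at 2.53 and Cdc7 at 1.85, and Gmnn at 2.50, which encodes the CDT1 inhibitor geminin, likewise passed as higher in the authors' deposited table.

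The fork genes were called higher in c3 for 30 of 30, with a median of 1.96. Lig1, the ligase of Okazaki fragments, had a level of 2.69 in c3 and 0.358 outside it. Pcna, the sliding clamp, had 2.03 and 0.439, and Dscc1, a clamp loader subunit, had 0.413 and 0.0467. The primase gene Prim1 had a level of 1.13 in c3 and 0.203 outside it. Chaf1b, a histone chaperone subunit at the fork, was the least raised of the list at 1.04 in the authors' deposited table.

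Nucleotide genes were called higher for 18 of 18, with a median of 1.51. Dut, the dUTPase, had a level of 5.83 in c3 and 1.18 outside it, Tyms, thymidylate synthase, 1.81 and 0.392, and Rrm2, the small subunit of ribonucleotide reductase, 0.584 and 0.170. Impdh2, of guanine nucleotide synthesis, was at the low end with 0.45 in the authors' deposited table. Serine and folate one-carbon genes, a list added after the c3 values were seen, were called higher for 6 of 8 and lower for none. The counts were the same in c4, with a median of 1.03 there and 1.09 in c3. Phgdh, the first enzyme of serine synthesis, had a level of 2.10 in c3 and 1.15 outside it, and Mthfd1l, a mitochondrial folate enzyme, had 0.281 and 0.0962.

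E2F factors and pocket proteins were called higher for 11 of 13 and lower for 2. E2f1 had a level of 0.697 in c3 and 0.0624 outside it, and 0.264 in c4. The repressors E2f7 at 1.68 and E2f8 at 1.41 stood higher in c4, at 3.53 and at the limit of 4, in the authors' deposited tables. Between these, Rbl1 at 1.54, Tfdp1 at 1.51, E2f3 at 1.27, E2f2 at 1.20, E2f6 at 0.73, Rb1 at 0.60, E2f4 at 0.45 and Tfdp2 at 0.19 were called higher in the authors' deposited table. Lower in c3 were Rbl2 at -0.26, a pocket protein of quiescent cells, and E2f5 at -1.03 in the authors' deposited table.

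The cyclins and kinases of the G1 to S step were called higher for 8 of 10. Ccne2 had a level of 0.495 in c3 and 0.0570 outside it, and Ccne1 had 0.154 and 0.0196; both encode cyclin E, the partner of CDK2. The D-type cyclins differed: Ccnd1 was called higher at 0.75, with Ccnd2 at 0.05 and Ccnd3 at 0.02 not called, in the authors' deposited table. Ccnd1 had a level of 0.587 in c3 against 0.117 in c4. Of 7 CDK inhibitor genes 3 were called lower in c3, Cdkn1b (p27) at -0.46, Cdkn1c (p57) at -0.62 and Cdkn2d (p19) at -0.62, and Cdkn1a (p21) was called higher at 0.90 in the authors' deposited table.

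Repair and checkpoint genes were raised too. Of the base excision and mismatch repair genes 11 of 13 were called higher and none lower, and among those with a c3 level over 1.25 times that in c4 were Ung, Msh6, of mismatch recognition, and Apex1, the abasic site endonuclease. Homologous recombination and Fanconi genes were called higher for 17 of 18, with a median of 1.82 in c3 and 2.77 in c4. Brca1 had a level of 0.298 in c3 and 0.0688 outside it, and 0.523 in c4. Fancd2, at 0.50 and not called in c3, was at the limit of 4 in c4 in the authors' deposited tables. A replication checkpoint list, added after the c3 values were seen, had 8 of 11 genes called higher and none lower. In c4 10 of the 11 were called higher, and the list median was 1.02 there against 0.53 in c3. For 1 gene of this list the c3 level was over 1.25 times that in c4, and for 2 the reverse. Chek1, the kinase that restrains origin firing, led the list with a level of 0.479 in c3 and 0.0604 outside it.

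Genes of DNA methylation and chromatin inheritance were called higher for 10 of 13 and lower for none, with a median of 0.74. The counts were the same in c4, with a median of 0.96. Hells had a level of 2.26 in c3 and 0.199 outside it, Uhrf1, which guides the maintenance methyltransferase to hemimethylated DNA, 1.19 and 0.129, and Dnmt1, that enzyme, 2.49 and 0.649. Cdca7, which recruits HELLS, had 2.97 and 0.675. The de novo enzymes were less raised, Dnmt3b at 0.59 and Dnmt3a at 0.22, and Tet1 at 0.03, Tet2 at -0.17 and Tet3 at 0.22 were not called in the authors' deposited table. Histone chaperones and the histone mRNA binder, a list added after the values were seen, were called higher for 12 of 12, Nasp at 2.45 and Slbp at 1.86 in the authors' deposited table. All 12 were called higher in c4 too, with a median of 1.19 there and 1.50 in c3.

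Histone mRNA was lower in c3 than in all cells outside it pooled. Of 15 replication-dependent histone genes 14 were called lower and none higher, with a median of -0.92, and 13 were called higher in c4, where the median was 3.66. Hist1h2ap had a level of 5.79 in c3 and 9.34 outside it, and 56.3 in c4. Hist1h1b had 0.172 in c3 and 0.509 outside it, and 2.96 in c4. For all 15 genes the c4 level was over 1.25 times the c3 level. The summed level of the list was 8.64 in c3 and 15.3 outside it. By cluster it was at least 84.2 in c4, where some members were at the limit of 4. It was 51.1 in c5, 8.51 in c2, 6.49 in c6, 6.44 in c7 and 4.95 in c1. The sum in c3 thus lay below those of c4 and c5, within 1.25 times that of c2, and above those of c1, c6 and c7. Histone genes are near-identical copies, so the split of counts among them is uncertain. Most of their mRNA carries no poly(A) tail, and the part of library priming in these values was not tested.

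Mitotic genes were split against the cells outside c3. Of 42, 22 were called lower and 7 higher, with a median of -0.50, while 41 were called higher in c4, with the median at the limit of 4. Ube2c, of the anaphase-promoting complex, had a level of 0.138 in c3 and 0.614 outside it. Plk1, a mitotic kinase, had 0.0269 and 0.0942, and Ccnb2, a mitotic cyclin, had 0.0955 and 0.321. Mki67, the proliferation antigen, was not called, with 0.08 in c3 and the limit of 4 in c4 in the authors' deposited tables. The summed level was 14.4 in c3 and 14.2 outside it. By cluster it was at least 84.5 in c4, 43.5 in c5, 4.60 in c7, 4.35 in c2, 3.28 in c6 and 3.18 in c1. Members at the limit of 4 make the c4 sum a lower bound, and members at -4 make the c1 and c2 sums upper bounds. Plk1 itself had at most 0.00872 in c1 and 0.00788 in c2, both below its level in c3. The 7 called higher were Top2a, Cdk1, Mad2l1, Tacc3, Smc4, Ttk and Cks2. Top2a, the decatenating topoisomerase, had a level of 2.92 in c3 and 1.22 outside it, and at least 8.97 in c4. For all 42 the c4 level was over 1.25 times the c3 level, and the median log2 ratio of c3 to c4 was -3.01 or lower. The centromere network of the inner kinetochore, added after the values were seen, had 12 of 15 genes called higher in c3 and 2 lower, led by Cenps at 2.62 and Cenpk at 2.31 in the authors' deposited table. In c4 14 of the 15 were called higher, with a median of 3.00, and for 12 the c4 level was over 1.25 times the c3 level.

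These lists were raised in c4 as widely as in c3. In c4 22 of 23 licensing, 30 of 30 fork and 18 of 18 nucleotide genes were called higher. The c4 medians were 1.44, 1.80 and 1.05, against 2.32, 1.96 and 1.51 in c3. Set beside c4 gene by gene, the licensing, fork and nucleotide lists each had more genes higher in c3 than in c4. No table compares c3 with c4 directly, and the difference was not tested. In the licensing list 11 of 23 genes had a c3 level over 1.25 times that in c4, and 4 the reverse. Mcm2 had 1.39 in c3 against 0.627 in c4, Mcm6 3.90 against 1.99, Mcm4 1.24 against 0.616 and Cdt1 0.841 against 0.447. Dbf4 went the other way, with 0.268 against 1.01. In the fork list 9 of 30 were higher in c3 by that margin, 19 lay within it and 2, Clspn and Chtf18, were higher in c4. Clspn, a checkpoint adaptor, had 0.722 in c3 against 1.13 in c4. In the nucleotide list 8 of 18 were higher in c3, 6 lay within the margin and 4 were higher in c4. Shmt1, of folate metabolism, had 0.326 in c3 against 0.181 in c4, and Dctpp1, a nucleotide pyrophosphatase, 3.38 against 2.52, while Tk1, thymidine kinase, had 0.784 against 1.51 and Rrm2 0.584 against 1.27. Recombination genes were higher in c4 for 13 of 18 and higher in c3 for 1, Rmi2. Genes called higher in c3 and lower in c4 numbered 134, and 238 were called lower in c3 and higher in c4.

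**Figure D3:**
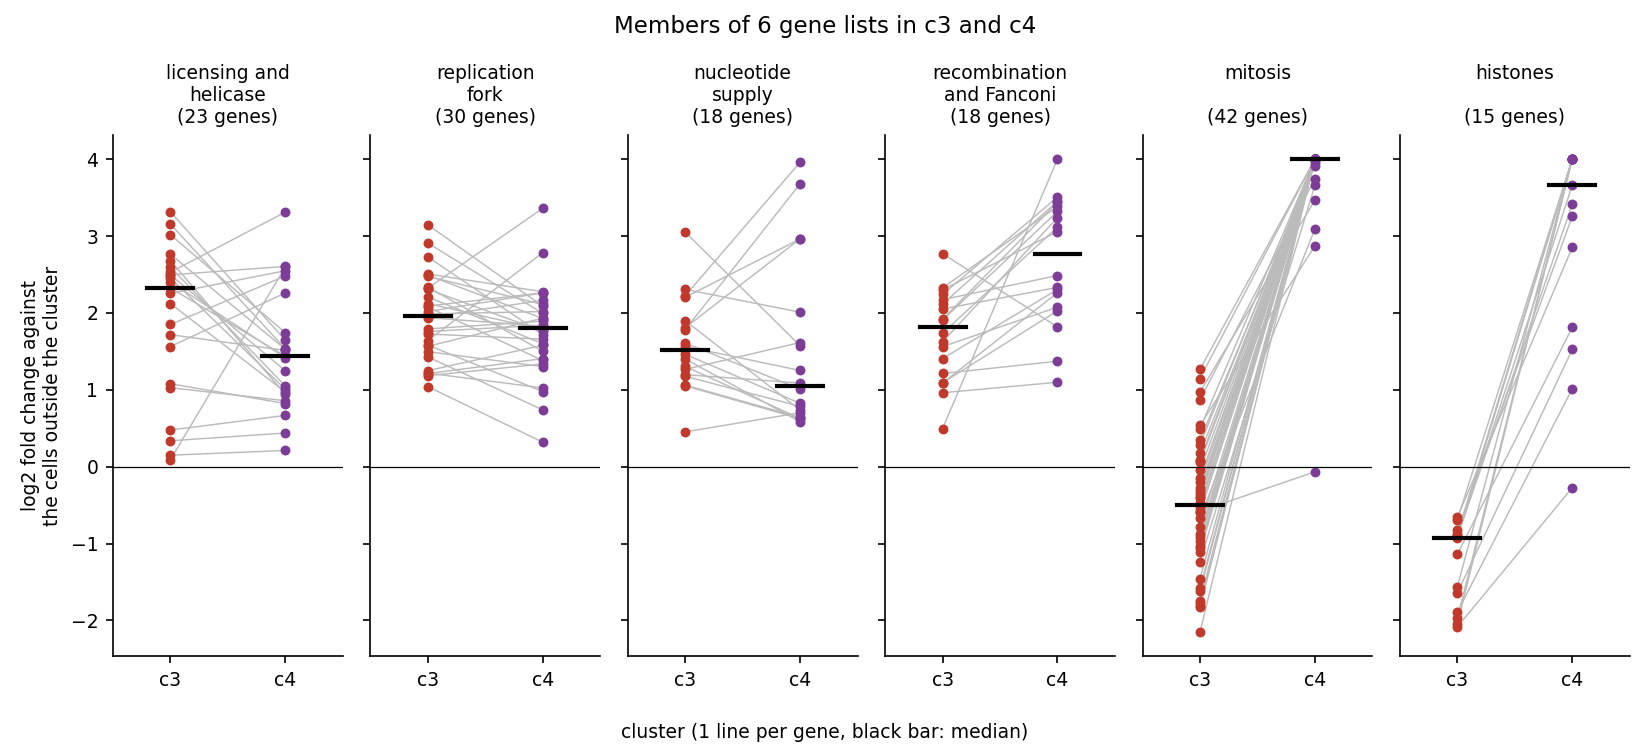
Log2 fold change of c3 and of c4, each against the cells outside it (y axis), for the members of 6 lists, with 1 line per gene and a black bar at the median. Licensing genes have a median of 2.32 in c3, and mitosis genes run from a median of -0.50 in c3 to the limit of 4 in c4.

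The erythroid side of the working name rested largely on genes with a mean expression below the median, Klf1, Gata1 and Ermap among them. Among transcription factors of the red cell and megakaryocyte lineages 6 of 15 were called higher and 7 lower in c3, with a median of -0.01 (mean 0.22). Klf1 had a level of 0.0613 in c3 and 0.0102 outside it, and 0.0364 in c4. Gata1 had 0.0897 in c3 and 0.0267 outside it, but 0.166 in c4. Gfi1b at 0.53, Sox6 at 0.46, Myb at 0.33 and Tal1 at 0.18 were called higher, and Zfpm1 (0.10) and Ldb1 (-0.01) were not called, in the authors' deposited table. Called lower were Gata2 at -0.28, the GATA factor of stem and early progenitor cells, Lyl1 at -0.18, Nfe2 at -0.28, Cbfa2t3 at -0.29, Bcl11a at -0.30, Lmo2 at -0.39 and Cited2 at -0.88 in the authors' deposited table.

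Genes of the red cell surface were called higher for 10 of 16 and lower for none, with a median of 1.35, or 0.53 over its expressed members alone. Among those at the upper limit were Ermap, an erythroid membrane protein, Rhd and Kel, blood group proteins, and Add2, of the membrane skeleton. The rebuilt level in c3 was at least 0.0350 for Ermap, 0.0436 for Rhd, 0.0159 for Kel and 0.0130 for Add2. The adjusted p in the authors' deposited table was 0.000622 for Ermap and 0.00489 for Kel, against 8.89e-163 for E2f1. For Ermap, Rhd and Add2 the next highest cluster was c5, and all were at or below -1.41 in c4 in the authors' deposited table. Kel was at 1.42 in c4 in the authors' deposited table. None of Ermap, Rhd, Add2 and Kel was called in c4, so no difference from c4 is read from these values. Epor had a level of 0.126 in c3 and 0.0485 outside it, with 0.112 in c4, and Tfrc, the transferrin receptor, had 0.131 and 0.0563.

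Of the 14 called genes at the upper limit, 13 were below the median mean expression. Besides those named, these included Sptb, beta-spectrin, Cldn13, a claudin, Pklr, the red cell and liver pyruvate kinase, Btnl10, Arhgdig, Abcg4, Ccdc177 and Asb17os. The limit was reached by 283 genes in all.

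Red cell content genes gave a mixed picture. Globins, carbonic anhydrases and skeleton genes were called higher for 9 of 17 and lower for none, with a median of 1.43, or 0.86 over the expressed members alone. Car1 had a level of 0.329 in c3 and 0.0259 outside it, with 0.261 in c7 and 0.0862 in c5, so that c3 was only 1.26 times c7. Its adjusted p of 0.000467 in the authors' deposited table was far larger than those of E2f1 or Hells, which had lower fold changes. Hba-a1, an alpha globin, had 0.817 in c3 and 0.183 outside it, and was called, while its near copy Hba-a2 at 2.14 was not called in the authors' deposited table. Hbb-bt had 1.10 and 0.627, and Hbb-bs had 1.12 and 0.599, and only Hbb-bt was called. Counts of such copies cannot be told apart with certainty. Car2, another carbonic anhydrase, had 7.71 in c3 and 6.56 outside it, and 10.5 in c4.

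Heme and iron genes were called higher for 13 of 20 and lower for 2, with a median of 0.42. Alad, an early enzyme of heme synthesis, had a level of 0.533 in c3 and 0.268 outside it. Alas2, the erythroid form of the first enzyme, was at 3.69 and not called, while its housekeeping counterpart Alas1 was called lower at -0.34 in the authors' deposited table. The summed level of the list was 34.8 in c3 and 35.7 outside it, of which the ferritin genes Fth1 and Ftl1 gave 18.1 and 11.4 in c3 and 17.9 and 13.8 outside it.

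The markers behind the working name come from the same c3 table and in part from the same lists, so the lists do not test it. Its replication genes were high over whole lists, in c3 and in c4. For the red cell lineage it rested on genes of high fold change and low mean expression, with Gata1 higher in c4 and the transcription factor list split, so the group is called cluster c3 here. Megakaryocyte genes were called higher for 7 of 14 and lower for 4, with Pf4, platelet factor 4, at 0.69 and Vwf, von Willebrand factor, at -0.61 in the authors' deposited table.

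**Figure D4:**
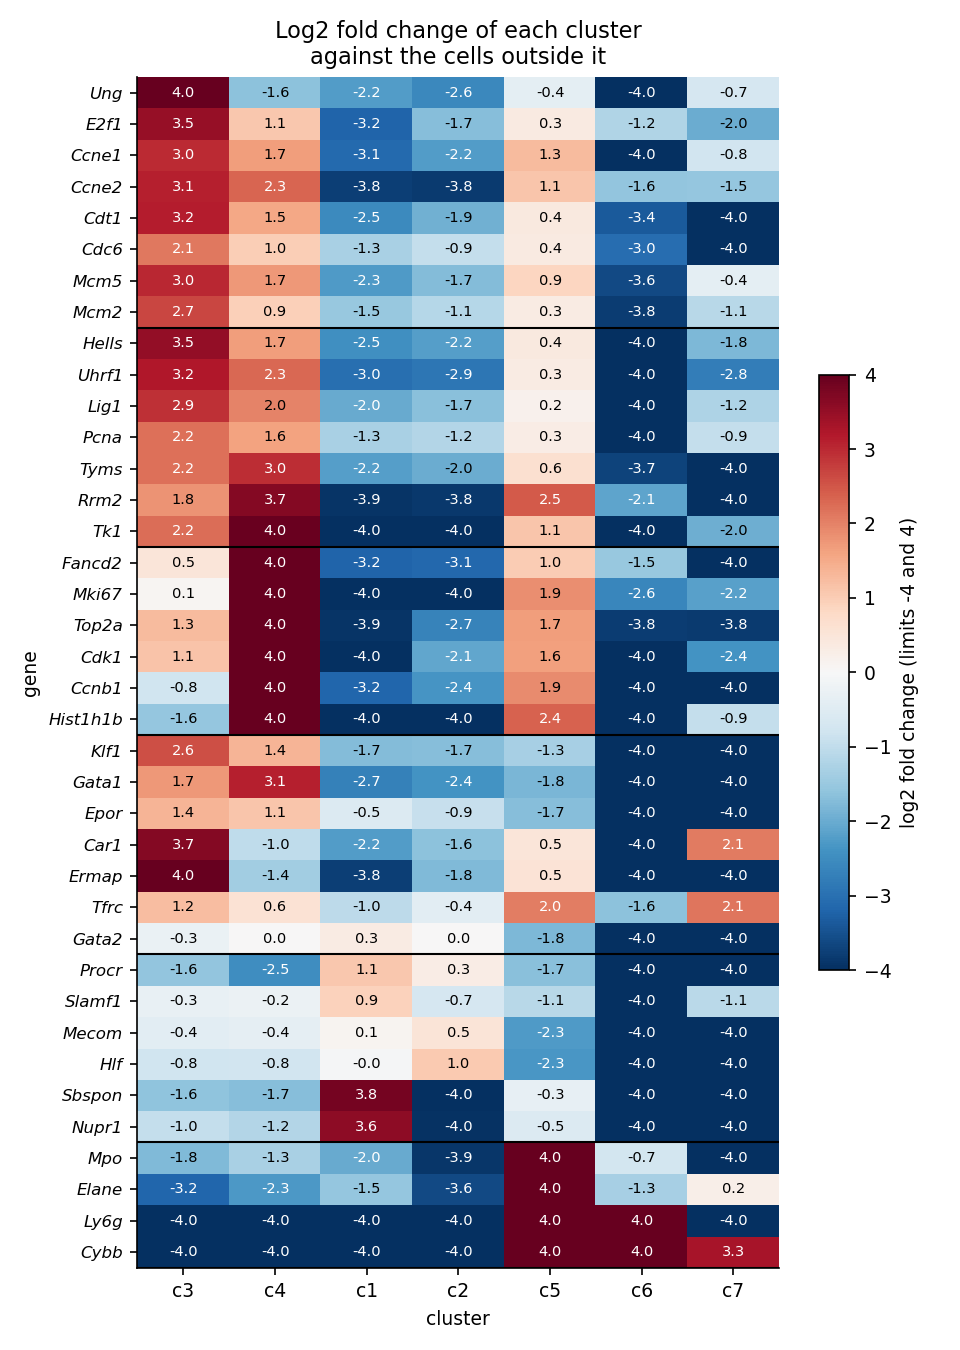
Log2 fold change of each of the 7 clusters against the cells outside it (columns, c3 first) for genes of 6 kinds parted by lines (rows), with the value printed in each cell and limits at -4 and 4. The upper blocks are high in c3, the mitosis block is at 4 in c4, and Ermap is at 4 in c3 alone of the 7 columns.

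Markers of other cells that a sort of HSC could hold were summed by list. Against all cells outside c3 pooled, the sum was lower in c3 for each such list except T and NK cell genes. For the macrophage and lymphoid lists that difference lay within the margin used above to order clusters. Against c1 and c2, the lymphoid, T and NK cell, and mast cell and basophil lists summed to more in c3. Granulocyte and monocyte genes were called lower for 12 of 18 and higher for none, with a summed level of 43.8 in c3 and 94.7 outside it, against 1125 in c6. Their sum was 49.1 in c1 and 52.8 in c2, both within that margin of c3. The 10 lowest called expressed genes, all at the limit of -4, were Cd177, Cybb, Fcgr3, Fcnb, Ifitm6, Lrg1, Ly6g, Mcemp1, Mmp8 and Trem3. All 10 were at the upper limit of 4 in c6, and 9 of them in c5 as well, so these 2 clusters could not be ranked. The low values were not particular to c3. All 10 were also at -4 in c1 and c2, and between -4 and -3.46 in c4, in the authors' deposited tables. Lymphoid genes summed to 1.26 in c3 and 1.57 outside it, against 0.697 in c1 and 0.876 in c2. Of these genes, Pax5, Ebf1, Cd79a, Rag1 and Igll1 were at the lower limit in c3 without being called. T and NK cell genes summed to 0.707 and 0.450, of which Nkg7, also on the lymphoid list, made up 0.595 in c3. The T and NK cell sum was 0.386 in c1 and 0.178 in c2. Flt3, a receptor of multipotent and lymphoid progenitors, was called higher at 0.52 in the authors' deposited table. Mast cell and basophil genes, of which 6 of 9 are listed in the table, summed to 0.0499 and 0.0907, with 1 called in each direction. In c1 and c2 they summed to 0.0292 and 0.0186. Macrophage genes summed to 0.145 and 0.149, with Adgre1 and Marco at the lower limit, and endothelial and stromal genes summed to 0.440 and 0.570. In c1 and c2 the macrophage sums were 0.112 and 0.130, and the endothelial and stromal sums 0.474 and 0.732. The part of such cells in the values of c3 was not tested.

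Stem cell identity genes were lower in c3. None of 16 was called higher and 13 were called lower, with a median of -0.47. The same genes were called lower for 10 and higher for 3 in c4, with a summed level of 17.3 there and 16.8 in c3. Procr, the protein C receptor used to sort HSC, had a level of 0.357 in c3 and 1.06 outside it. Slamf1, which encodes CD150, was closer at 0.238 and 0.293, Hlf had 2.75 and 4.81, and Mecom had 1.91 and 2.58. The transcription factor gene Meis1, at -0.10 with levels of 2.57 and 2.77, was not called in the authors' deposited table. Genes reported to rise in aged HSC were called lower for 21 of 23 and higher for none, with a median of -0.87. Cldn5, a tight junction gene, had 0.0597 in c3 and 0.526 outside it, and Nupr1, a stress regulator, had 1.30 and 2.54. The cells outside c3 include c1, where most of these genes were highest. The summed level of the aged list was 23.3 in c1, 7.80 in c3, 7.73 in c4 and 5.66 in c2. For c4, 18 of 23 were called lower and none higher, with a median of -0.86.

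Multipotent progenitor genes were called higher for 3 of 10 and lower for 2, shares near those of all expressed genes. Cd34 had a level of 1.38 in c3 and 0.835 outside it, Cd48 had 0.0874 and 0.0497, and Plac8 had 1.40 and 0.738. Cd48 marks progenitors that have left the HSC gate, and its level in c3 was far below that in c7, at 0.106 times. Satb1, a chromatin organiser of lymphoid priming, was called lower at -0.88 and Cd27 at -0.19 in the authors' deposited table. MHC class II genes were called lower for 3 of 8, with Cd74, the invariant chain, at 0.932 in c3 and 1.95 outside it. The summed level of the list was 4.64 in c3 and 5.98 outside it. By cluster it was 49.5 in c7, 9.07 in c1, 5.28 in c5, 3.39 in c2, 3.20 in c4 and 0.375 in c6. In c4 7 of the 8 were called lower. For all 8 the c3 level was above the c4 level by more than the margin used to order clusters, a difference that was not tested.

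Genes of ribosome biogenesis were raised by small amounts, called higher for 29 of 33 and lower for 1, with a median of 0.66. Nop56, a core protein of the small nucleolar particles, had a level of 2.44 in c3 and 1.01 outside it, Ncl, nucleolin, had 10.7 and 6.19, and Fbl, fibrillarin, had 2.29 and 1.27. In 18 of the 33 the c3 level was over 1.25 times that in c4, and in none the reverse. Myc had 1.13 in c3 and 0.714 outside it, with 0.631 in c4, and Mycn was lower in c3, at 0.770 and 1.09.

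Autophagy genes, the subject of the series, differed by small amounts, and nearly all their calls in c3 were lower. Of 32 core genes 10 were called lower (31.25%) and none higher, with a median of -0.17, against 17.1% lower and 32.5% higher among expressed genes. Map1lc3b, which encodes an LC3 protein, had a level of 2.26 in c3 and 3.25 outside it. Whether reads of the transgene were counted under that gene is unknown here. Ulk1, the initiating kinase, had 0.188 and 0.302, and Gabarapl1, a relative of LC3, had 1.06 and 1.61. Of 12 receptor genes 5 were called lower and 1, Optn, higher. Sqstm1, which encodes p62, had 0.273 in c3 and 0.396 outside it. In c4 the core genes were called higher for 9 and lower for 7 (median -0.02) and the receptor genes higher for 4 and lower for 4 (median 0.04). The authors' deposited table of c4 had -0.51 for Map1lc3b and, for Sqstm1, -0.52. The tables of c3 and c4 share part of their comparison cells, and the difference was not tested.

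**Figure D5:**
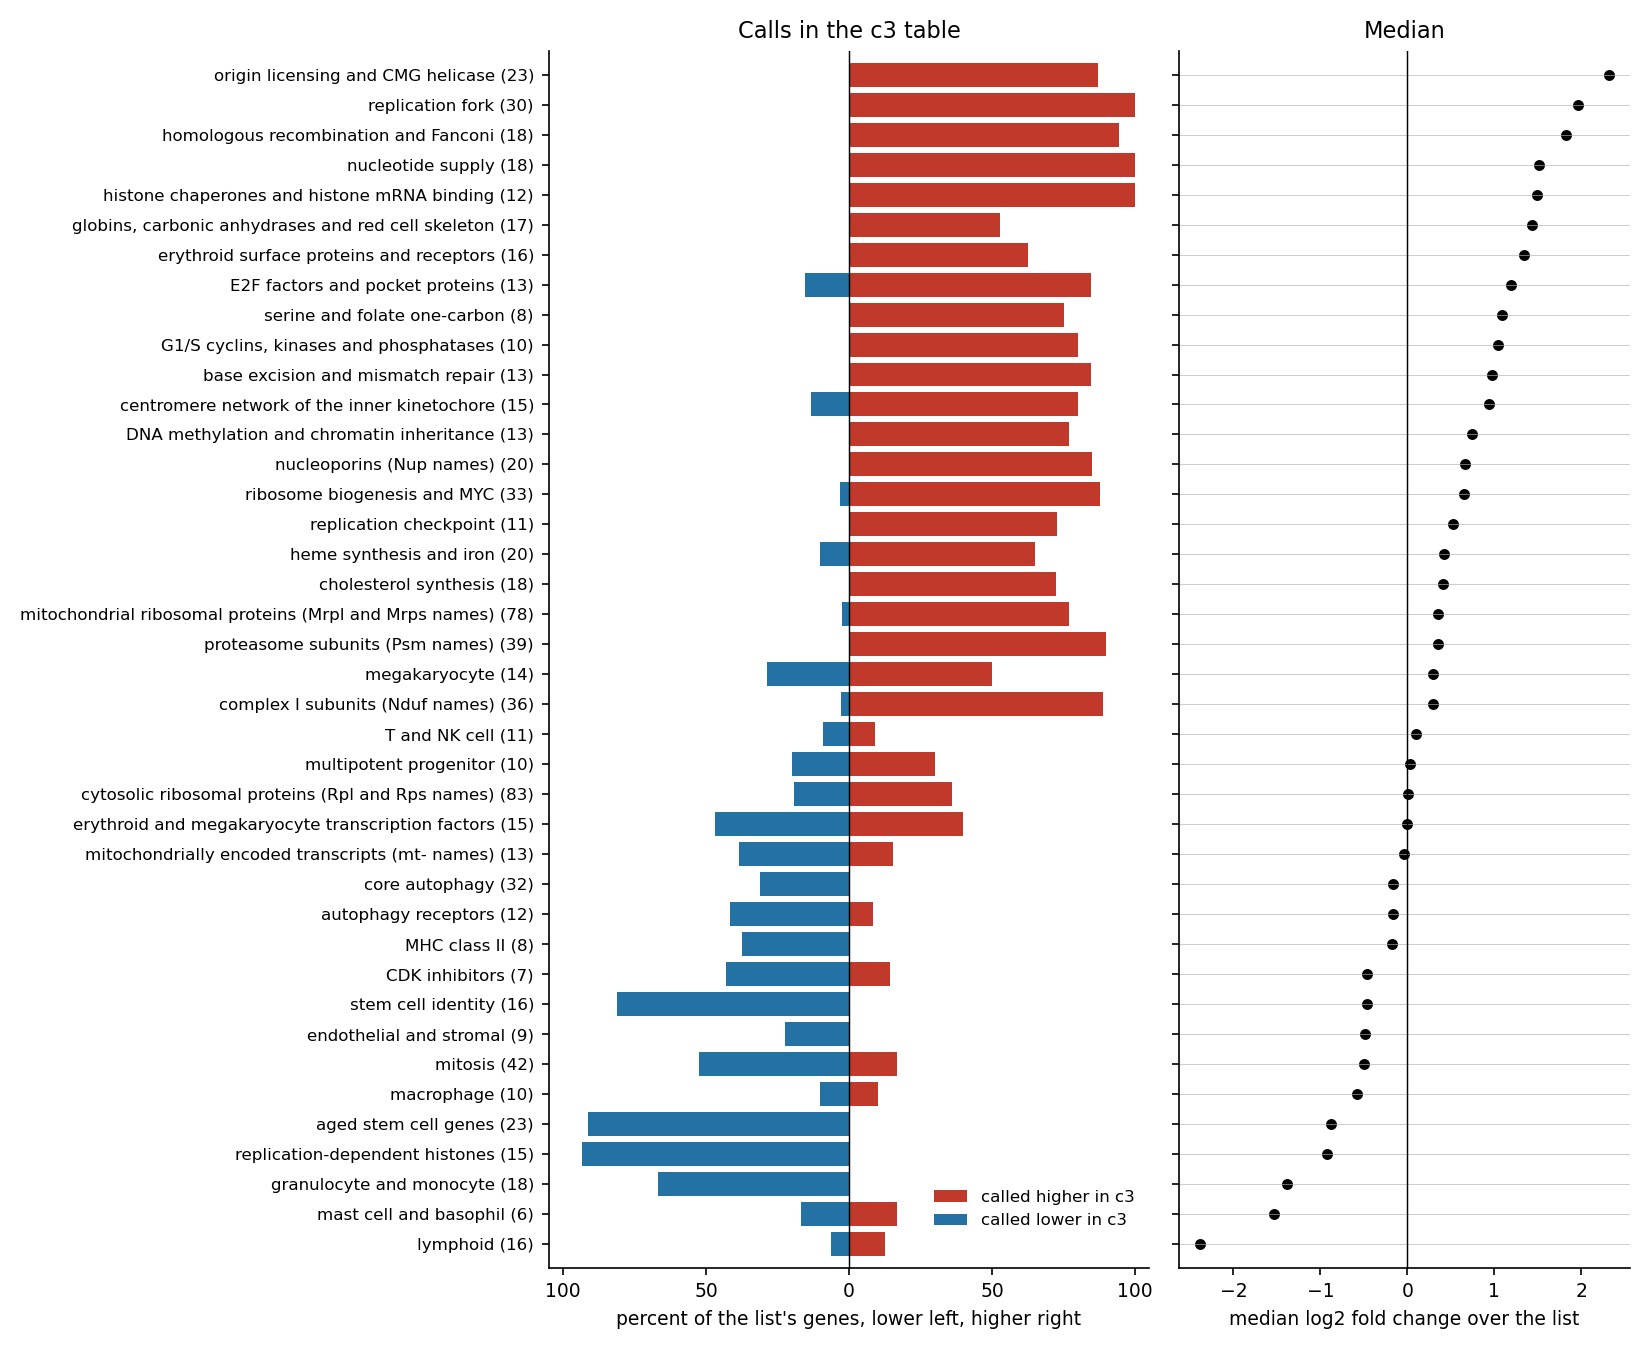
For each gene list (rows, number of genes in brackets), the percent of genes called higher (to the right) and lower (to the left) in c3, and beside it the median log2 fold change. Replication lists stand at the top, and histone, aged stem cell and myeloid lists near the bottom.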

How the data were processed

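The series holds single-cell RNA libraries of 4 samples, 2 labelled old and 2 labelled young. The files are 8 tables of the authors' own comparisons, for c1 to c7 against the cells outside each and for c1 against c2, with 20062 genes each. Scanpy, GSNAP 2015-09-29, HTSeq and the build GRCm38.p4 are named in the submitters' processing notes, with no role stated. The sources used here do not state how clusters, tests, cell filters and doublets were handled. Depth per cell, cell numbers and standard errors are unknown.

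Mean expression was deposited on a log2 scale, since 2 raised to it summed to 10000 over genes, and 8 genes held an error text. Fold changes were deposited by the authors as log2 values limited to -4 and 4. The p-values deposited by the authors were adjusted by Benjamini-Hochberg over all 20062 genes, to within 2.28e-15. Shares of cells were fitted by least squares over 990 genes with a log2 mean between -5 and -3 and no value at a limit, as the weights under which the 7 cluster means gave the overall mean; levels followed from shares, mean and fold change. The fit was tested on simulated data. Over 1999 genes called higher and free of limits, the c3 level left over after the other 6 tables was 0.981 times its own (median; 5th to 95th percentile 0.872 to 1.01). A deposited fold change is thus near a ratio of means, but not exactly one for strong genes.

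The members and lists were chosen with earlier results of these data known, and the lists said to be added after the c3 values were seen were chosen from them. Genes were named by rule: the 15 genes with the highest and the 10 with the lowest fold change among called expressed genes other than predicted ones, the 10 most above the next cluster, up to 4 called members of each list, every licensing, E2F and erythroid factor, and 13 in any case, such as Mki67 and Procr; the other genes named, such as the list members at either end, were chosen after their values were seen. Some genes that the rule takes are left out of the text. No test was made between groups. Python 3.11.15, numpy 2.4.6, scipy 1.17.1, pandas 2.3.3 and matplotlib 3.10.9 were used. Promoter windows are from RefSeq (GRCm38.p6).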

Additional observations from a re-analysis of the deposited data

How the results depend on the processing

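Asking also for a log2 fold change of at least 1 in size left 604 genes called higher and 481 lower. The other alternatives, a threshold of 0.01 on the adjusted p, expressed genes alone, the adjustment recomputed over them, and genes at a limit or predicted genes left out, kept both counts within 1.5 times. The share of cells in c3 was 10.1% with genes at a limit kept in the fit. E2F letters read on the gene's strand only stood in 11.3% of replication windows, against 1.20% of all windows. Equal shares for the 7 clusters left 1240 called expressed genes highest in c3, against 1219.

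Of 41 list medians, 6 changed sign under an alternative. The erythroid transcription factor list was 0.22 by its mean. Among expressed members alone the megakaryocyte list was -0.11, the T and NK list -0.28 and the macrophage list 0.59. Centred on expressed genes, the multipotent progenitor list was -0.041 and the cytosolic ribosomal protein list -0.063. By their means the T and NK list was -0.14 and the ribosomal list -0.064. The causes were not tested. Of 164 named genes, 9 lost their call at 0.01. Rebuilt from the other 6 tables, an alternative chosen after seeing the data, the c3 level was 1.86 in place of 2.26 for Hells and 1.51 in place of 1.83 for Mcm5.

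No paired analysis was possible because the tables hold no sample columns, and for the same reason leaving out each replicate was not run. With depth and cell numbers unknown, the precision of genes of low mean expression, the erythroid surface genes among them, cannot be given.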

Other observations

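Other housekeeping machinery was raised in c3 by small amounts, and the proteasome and nucleoporin genes were raised in c4 too. These groups were added after the c3 values were seen. Nearly all their members are expressed genes, of which 32.5% were called higher and 17.1% lower. Over all genes the shares were 18.1% and 10.2%. Proteasome subunit genes were called higher in c3 for 35 of 39 and lower for none, with a median log2 fold change of 0.35. Nucleoporin genes were called higher for 17 of 20 and lower for none, with a median of 0.67, and Nup85, of the outer ring of the nuclear pore, had a level of 0.397 in c3 and 0.156 outside it. Of 20 nucleoporins, 13 had a level in c4 over 1.25 times that in c3.

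Mitochondrial genes of the nucleus and of the organelle differed in c3, and in c4 as well. Nuclear genes for mitochondrial ribosomal proteins were called higher for 60 of 78 and lower for 2, with a median of 0.36. Of 36 complex I subunit genes 32 were called higher and 1 lower, with a median of 0.30. The c4 counts were 69 of 78 higher and 2 lower (median 0.47), and 34 of 36 higher and none lower (median 0.50). Of 13 transcripts encoded by the mitochondrial genome 2 were called higher and 5 lower in c3 (median -0.04), and 1 higher and 9 lower in c4 (median -0.09). The transcript mt-Co1 had a level of 76.2 in c3 and 94.3 outside it. Cytosolic ribosomal protein genes were called higher for 30 of 83 and lower for 16, shares near those of all expressed genes. Their median was 0.01 and turned to -0.06 as a mean.

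Genes of cholesterol synthesis were called higher in c3 for 13 of 18 and lower for none, with a median of 0.42. In c4 8 were called higher and 1 lower. Their summed level was 5.83 in c3 and 4.18 outside it, and 3.02 in c1. It was 5.45 in c2 and 5.17 in c4, both within 1.25 times that of c3. Idi1, of the isoprenoid steps, had a level of 0.621 in c3 and 0.293 outside it, and Sqle, squalene epoxidase, had 0.350 and 0.187. In 7 of the 18 the c3 level was over 1.25 times that in c4, and in 2 the reverse.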
